A study of Rattus norvegicus with 27 samples.

Results

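The striatum of Goto-Kakizaki (GK) rats was compared with that of Wistar control rats on 6 of the 27 single-colour arrays of a series that also covers the hippocampus, the prefrontal cortex and Wistar rats made diabetic with streptozotocin. The 6 arrays are 3 GK and 3 control pools and were taken by their labels alone, so no measured value entered their choice. All rats were male and 10 weeks old at the end of the experiment. GK rats descend from Wistar stock selected for poor glucose tolerance and turn diabetic without treatment, and their blood glucose is labelled as 13.9 mmol/L, against 7.64 mmol/L in the untreated Wistar controls. Each group had 9 animals whose tissue was pooled by 3, so every array carries a pool and the spread between arrays is that between pools of animals. Because all GK rats are of one strain and all controls of another, an effect of diabetes and any other difference between the strains cannot be told apart.

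The striatum is the input station of the basal ganglia. Most of its neurons are medium spiny neurons, which release GABA, receive dopamine from the midbrain through the receptors Drd1 and Drd2 and make the peptides enkephalin (Penk) or substance P (Tac1). Insulin receptors are found throughout the forebrain, and interferon-stimulated genes, which many cells switch on when they sense viral RNA or interferon, can be read in brain tissue at low levels. The tissue label was borne out by these markers. Drd1, Drd2, Ppp1r1b, Penk, Tac1, Adora2a and Rgs9 were well above background on all 6 arrays, and their log2 levels in the control striatum exceeded those in the control hippocampus by 3.65 to 6.56. A level here is the log2 of a probe's processed signal minus the log2 of the 75th percentile of its array, and a difference is GK minus control on that scale unless stated otherwise. Levels of different probes are not comparable.

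The arrays were not equally alike. The second GK array and the second control array had correlations of at most 0.977 with the other GK and control arrays, while the other pairs among the 6 reached 0.981 to 0.994. The 3 GK arrays and control array 1 were hybridised on slide 4, control array 2 on slide 5 and control array 3 on slide 6. The hormone genes of the hypothalamus stood apart on the second GK array: Avp, the vasopressin gene, had levels of -1.74, 5.18 and -0.76 on the GK arrays and of -2.09, -1.95 and -2.15 on the control arrays, and Oxt, the oxytocin gene, had 2.66 on that array and between -3.66 and -3.04 on the other 5. The part of such tissue in other values of that array was not tested. On single arrays, 67.4% to 74.2% of probes exceeded background clearly, and the small number of arrays sets the precision.

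Of 30025 probes tested, 276 were called, which is 0.919% of them. Called means an adjusted p under 0.05 in limma (Benjamini-Hochberg adjustment over all probes tested) together with a change of at least 2-fold. There were 113 higher (0.376%) and 163 lower in GK (0.543%). The median fold was 3.40 among the former and 3.79 among the latter, and 43 and 77 changed at least 4-fold. Among the called probes, 20 had no control array well above background and 40 had no GK array so. They passed the filter through the other group only, and their folds rest on signals near the floor. Where a probe had to be well above background on all 6 arrays, 292 were called, 191 of them among the 276. In all 276 the 3 GK arrays and the 3 control arrays did not overlap, as was the case in 23.1% of all probes tested. Against control array 1 alone, which shared slide 4 with the GK arrays, 274 differed at least 2-fold in the same direction, and without the second array of both groups all 276 did. The direction itself is set by the lack of overlap. The size is largely set by the choice of these probes on the same arrays, so neither count is a separate check of the slides or arrays. Only 96 of the called probes could be matched to a gene symbol, and these stand for 93 genes. With 1 probe per gene, 36 of 12645 genes were called higher (0.285%) and 39 lower (0.308%). The number of calls moved with the processing: it was 8 with normexp background correction and between 73 and 235 when 1 of the 6 arrays was left out. The lowest of these, 73, was without the third GK array.

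**Figure D1:**
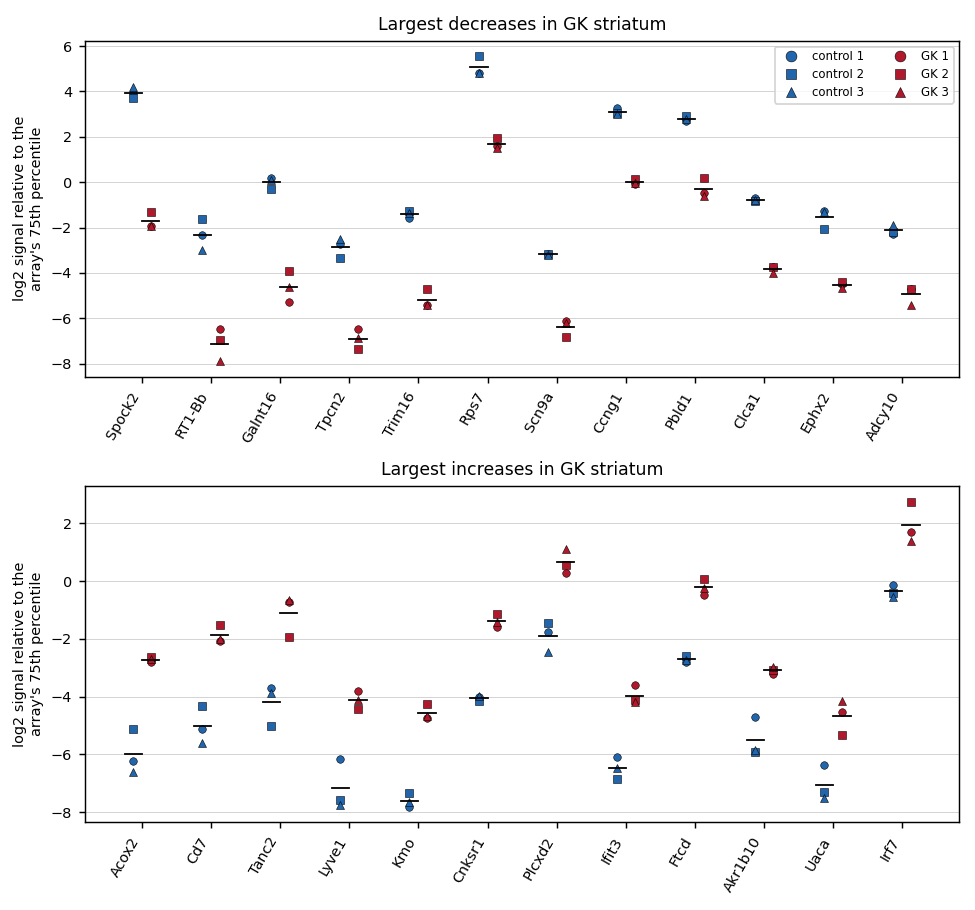
Log2 level relative to the array's 75th percentile (y axis) for the 12 genes with the largest decrease (top) and the 12 with the largest increase (bottom) in the GK striatum; blue symbols are the 3 control arrays, red symbols the 3 GK arrays, the shape gives the array number and the lines are group means. In each of the 24 genes the red and blue symbols do not overlap, and the mean difference runs from -5.66 for Spock2 to 3.27 for Acox2.

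The largest decreases were in genes of unrelated roles. Spock2, which encodes a secreted proteoglycan of the brain's extracellular matrix, had levels of -1.94, -1.32 and -1.92 on the GK arrays and of 3.94, 3.69 and 4.18 on the control arrays. Every GK pool lay far below every control pool, and the difference was -5.66 ± 0.25 (standard error of the fit, n = 3 pools per group; limma adjusted p = 0.00038), a 50.7-fold decrease. It lost its call under 1 of 27 other settings. Rps7, a protein of the small ribosomal subunit, fell from 4.81, 5.56 and 4.81 in the controls to between 1.51 and 1.95 in GK (-3.37 ± 0.27, limma adjusted p = 0.00218). Ccng1, cyclin G1, a target of p53, fell from 3.25, 3.05 and 3.03 to -0.08, 0.12 and -0.04 (-3.11 ± 0.19, limma adjusted p = 0.00121). In both genes the gap between the groups was wider than the spread within either.

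Other decreases concerned enzymes. Galnt16, which starts O-linked sugar chains on proteins, was 0.18, -0.28 and 0.11 in the controls and -5.28, -3.91 and -4.64 in GK. Ephx2, soluble epoxide hydrolase, which inactivates signalling epoxides made from arachidonic acid, was -1.28, -2.04 and -1.30 in the controls and -4.51, -4.39 and -4.67 in GK. Adcy10, the soluble adenylyl cyclase that responds to bicarbonate, was between -2.28 and -1.87 in the controls and between -5.40 and -4.69 in GK. Their differences of -4.61, -2.98 and -2.82 came with limma adjusted p-values of 0.00177, 0.00317 and 0.00405. Pbld1, a protein of the phenazine biosynthesis family, differed by -3.09, and Clca1, of the chloride channel accessory family, by -3.03. Trim16, an E3 ubiquitin ligase, differed by -3.77. With single arrays left out in turn, all of the 12 largest decreases kept their call except RT1-Bb, which lost it without the second GK array.

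For 3 of the 12 decreased genes no GK array was well above background, and only a bound can be given. For the dim group it takes, on each array, the higher of the probe's own level and the dimmest level that any probe clearly above background reached there. Tpcn2, a cation channel of endosomes and lysosomes, was at least 5.51-fold lower, with levels of -2.72, -3.34 and -2.51 in the controls. Scn9a, a voltage-gated sodium channel of peripheral neurons, was at least 4.41-fold lower by 1 of its probes. The 3 control levels of that probe lay between -3.20 and -3.15. RT1-Bb, the beta chain of a class II major histocompatibility molecule, was at least 8.06-fold lower by 1 of its probes.

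Among called probes with a gene symbol, the largest increases were smaller than the largest decreases. This does not hold for all 276 called probes, where the largest increase was 62.0-fold and the largest decrease 58.8-fold. Acox2, a peroxisomal oxidase of branched-chain fatty acids and bile acid intermediates, had levels of -2.80, -2.64 and -2.71 in GK and was not well above background on any control array, which makes it at least 6.94-fold higher (limma adjusted p = 0.00949). Kmo, kynurenine 3-monooxygenase, an enzyme of tryptophan breakdown, had -4.75, -4.26 and -4.67 in GK and no control array above background, at least 2.03-fold higher (limma adjusted p = 0.00177). Akr1b10, an aldo-keto reductase, differed by 2.40 ± 0.33. Ftcd, an enzyme of histidine and folate metabolism, had -0.47, 0.08 and -0.24 in GK and -2.79, -2.58 and -2.74 in the controls, which is a difference of 2.49 ± 0.22 (limma adjusted p = 0.00317). Its groups did not overlap, and neither did those of the others.

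Cd7, a surface protein of T cells and natural killer cells, was between -2.06 and -1.53 in GK and -5.10, -4.32 and -5.62 in the controls, with a difference of 3.15 ± 0.35. Lyve1, a hyaluronan receptor of lymphatic vessels and of some macrophages, had -3.79, -4.43 and -4.11 in GK and no control array above background by its second probe, which makes it at least 2.79-fold higher. Tanc2, a scaffold of synapses, had -0.72, -1.93 and -0.65 against -3.69, -5.01 and -3.87. In each group the second array was the lowest, and the groups did not overlap. Plcxd2, a phospholipase-like protein, differed by 2.53 ± 0.33. Uaca, a coiled-coil protein with ankyrin repeats, was called by 1 of its 4 probes only, which was not well above background in the controls, was at least 1.89-fold higher and lost its call under 13 of 26 other settings. Its other probes differed by 1.15, 0.15 and -0.40, and the one at 0.15 was well above background on all 6 arrays. Of the 12 largest increases, Kmo, Cnksr1 and Ftcd kept their call whichever single array was left out. The other 9 each lost it without at least 1 array, for Acox2 the second or the third GK array and for Cd7 and Ifit3 the second GK array.

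Cnksr1 had a pattern of its own among the 24. It encodes a scaffold that links Ras to Raf signalling. Its levels were -1.59, -1.14 and -1.43 in GK and -4.03, -4.16 and -3.99 in the controls. The control pools were close together and all GK pools far above them. The difference was 2.68 ± 0.20 (limma adjusted p = 0.00177), a 6.39-fold increase. It was -0.13 in hippocampus and 0.13 in prefrontal cortex, and in the streptozotocin striatum, measured against the same 3 control arrays, 0.52.

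The array carries more than 1 probe for some genes, and these did not all move alike. Of the 93 genes, 27 had other tested probes, 34 in all. None of these was called in the opposite direction, 3 were called in the same direction, 24 had the same sign and 10 the opposite sign, and 9 differed by less than 0.3. The first 30 of the 60 bases are given here for the probes of 5 such genes, and of Spock2 and Cnksr1. They run 5′ to 3′ as they were deposited and show part of the sequence of each probe. The array's design places each probe by sequence only, and no position in the genome was assigned.
Ccng1, probe 1 (difference -3.11): tggagttaacagaaggagtagaatgtattc
Ccng1, probe 2 (difference -0.73): aactggatgaaatatcactctgaaaacttg
Mobp, probe 1 (difference -1.79): tttccacacctagcaggaccacacgatttc
Mobp, probe 2 (difference -1.14): caccaaaaatgtgtgttttgaattaacttt
Mobp, probe 3 (difference -0.41): agtcctggttgccagatgggagcttgaaaa
Scn9a, probe 1 (difference -3.19): gtggagagatggattctcttcgttcacaga
Scn9a, probe 2 (difference 0.11): tctaaagaaagcaatcaagaattgctccca
RT1-Bb, probe 1 (difference -4.80): cagctgtgacagttgtgaaataccctagct
RT1-Bb, probe 2 (difference 1.05): gtctgctcagtgacagatttctacccagcc
Lyve1, probe 1 (difference 2.03): attttcagactagtttttgttgctgagact
Lyve1, probe 2 (difference 3.05): tggcacggaagacaaaaatgatttgtatca
Cnksr1 (difference 2.68): aaaccgtgaccctcatctcaatgagcatgt
Spock2 (difference -5.66): attgttatcgatgttcaaatgcacactttc
No 2 probes of a gene shared a run of more than 7 bases, so their sequences are distinct. Whether each lies on a transcript of its named gene was not tested. Probe 2 of Ccng1 had levels of 3.35, 2.00 and 3.33 in GK and of 3.70, 3.53 and 3.65 in the controls and was not called (-0.73 ± 0.37, limma adjusted p = 0.486). Its groups did not overlap, but the second GK array lay well below the other GK arrays. Probe 1 differed by -2.94 and -2.38 and probe 2 by 0.02 and 0.02 in hippocampus and prefrontal cortex. Probe 2 of Scn9a was well above background on all 6 arrays and differed by 0.11 ± 0.56. Probe 2 of RT1-Bb had -2.18, -1.75 and -2.26 in GK and -2.61, -3.89 and -2.84 in the controls. It thus went the other way, by 1.05 ± 0.35, and did not pass (limma adjusted p = 0.302).

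Mobp, a protein of the myelin sheath, was read by 3 probes that differed in the same direction by unequal amounts. The first was 2.29, 2.26 and 2.11 in GK and 4.01, 3.90 and 4.13 in the controls (-1.79 ± 0.19, limma adjusted p = 0.00705). The others differed by -1.14 ± 0.27 and -0.41 ± 0.20 and were not called. Both probes of Lyve1 were called. Its probe 1 was well above background everywhere, at -1.36, -2.01 and -1.60 in GK and -3.19, -4.41 and -3.47 in the controls, with a difference of 2.03 ± 0.35 (limma adjusted p = 0.0479). The other probe of Cd7 differed by 1.31 ± 0.54 and was not called. One called probe without a gene symbol, for the transcript cluster TC541367, had -0.96, -0.90 and -0.81 in GK and -2.74, -3.07 and -2.92 in the controls (2.02 ± 0.19, limma adjusted p = 0.00468).

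**Figure D2:**
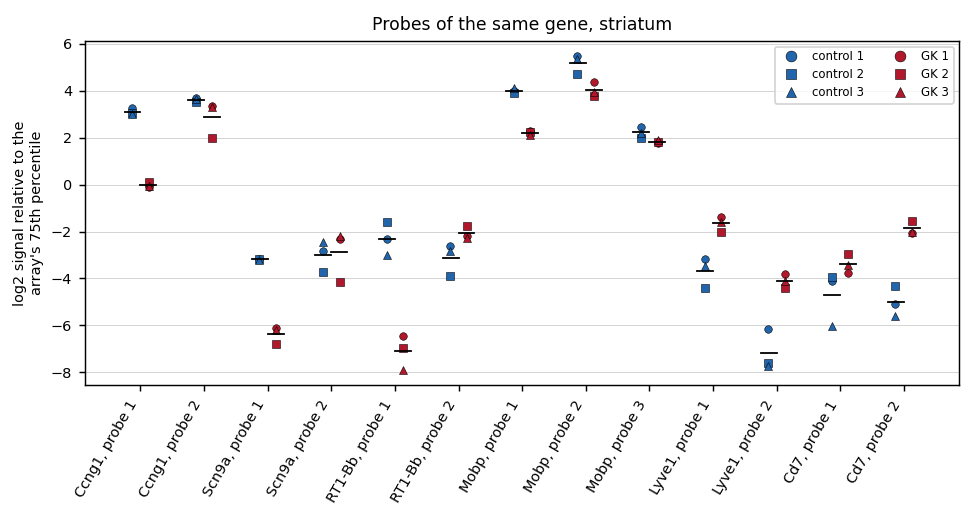
Log2 level relative to the array's 75th percentile (y axis) on each array for every tested probe of 6 genes, numbered from the most negative to the most positive difference; blue is control, red is GK, lines are group means, and levels compare groups within a probe but not different probes. In Ccng1, Scn9a and RT1-Bb the groups are far apart for probe 1 only, with differences of -3.11, -3.19 and -4.80, while both Lyve1 probes are higher in GK.

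As a whole, the interferon-stimulated genes lay higher in the GK striatum than the genes of the array at large. Of 57 genes on this list 47 could be tested. There were 5 called higher (Ifit3, Irf7, Mx2, Oas1a and Bst2) and 1 called lower (Oas1b). Over all 12645 genes tested, 0.285% were called higher and 0.308% lower. A positive difference was seen in 41 of the 47, against 6501 of the 12645. The median difference was 0.80, while that of all genes tested was 0.01. In 28 of the 47 all GK arrays lay above all control arrays, against 1422 of the 12645 genes, and in 1 all lay below. The list's median was 0.69 against control array 1 on the same slide and 0.62 without the second array of both groups, where 8 members were called higher. It was 0.46 in hippocampus and 0.51 in prefrontal cortex. The streptozotocin striatum, set against the same 3 control arrays, had a median of 0.57. Under normexp background correction, which moved the median of all probes to -0.26, the list's median was 0.30 with 30 of 47 positive.

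Irf7, the transcription factor that amplifies the interferon response, had levels of 1.69, 2.75 and 1.40 in GK and of -0.12, -0.40 and -0.55 in the controls. The difference was 2.30 ± 0.36 (limma adjusted p = 0.0352). The antiviral effectors Mx2 (0.63, 0.20 and 0.38 against -1.46, -2.06 and -1.41) and Bst2, which tethers budding virus to the cell (1.65, 2.14 and 1.45 against 0.24, 0.48 and 0.27), differed by 2.04 ± 0.25 and 1.42 ± 0.24, and the other probe of Bst2 by 0.98 without passing. Ifit3, which binds to viral RNA complexes, was not above background in any control and was at least 3.08-fold higher (limma adjusted p = 0.00829). All of these stood higher on every GK array, and the second GK array was the highest for Irf7 and Bst2 but the lowest for Mx2.

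The oligoadenylate synthetases, which make the second messenger that activates RNase L, went in both directions. Oas1a had 1.93, 2.85 and 1.64 in GK and at most 0.30 in the controls, a difference of 2.03 ± 0.32 (limma adjusted p = 0.0395). Oas1b was well above background on 2 of 3 control arrays and on no GK array, and was at least 1.20-fold lower (measured difference -2.21, limma adjusted p = 0.0314). Both genes lie in one cluster, with 2 genes between them in the RefSeq order, and as members of a family of similar sequence they may share signal. In the streptozotocin striatum Oas1b differed by 1.94 and Oas1a by 1.32 from the same controls. Isg15, a ubiquitin-like protein (1.46, limma adjusted p = 0.099), and Usp18, which removes Isg15 from proteins (1.58, limma adjusted p = 0.17), had differences of similar size without passing. Cxcl10, a chemokine, differed by -1.29. The 5 calls were 0 with normexp background correction, with the replicate block and within slide 4, 2 without the filter on dim probes, and 1 or 2 when single arrays were left out.

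**Figure D3:**
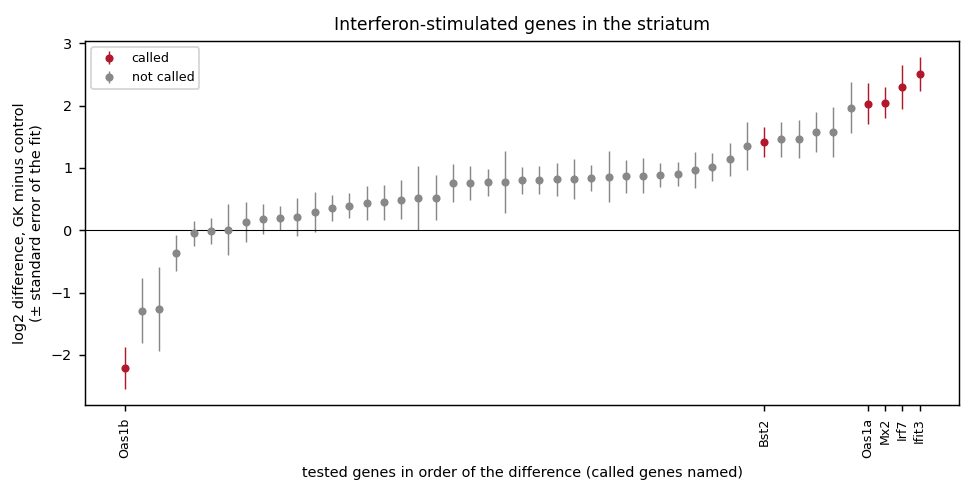
Difference in log2 level, GK minus control (y axis), with the standard error of the fit, for the 47 tested interferon-stimulated genes in order of the difference; red points were called and are named. The 5 genes called higher sit between 1.42 and 2.51, Oas1b is the lowest at -2.21, and 41 of the 47 points are above 0.

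The promoters of the called members were read from the RefSeq windows of GRCr8 for the core of the interferon-stimulated response element, GAAA followed after any 2 bases by GAAA, on both strands (TTTC, any 2 bases and TTTC on the other), from 250 bases before to 50 after the start. All 5 called members with a window in that table held it, 26 of 37 tested members of the list with a window did (70.3%), and 321 of 10280 tested genes with a window did (3.12%). Among all 27457 windows the share was 3.77%. The list is made of genes known for this response, so the share describes the list and not the GK rats. The 250 bases before the start of 3 of them are shown with the motif in capitals, for the strongest increase and for both Oas1 genes, whose capitals read alike while their differences have opposite signs.
Ifit3 (chr1:241527076-241527325, plus strand): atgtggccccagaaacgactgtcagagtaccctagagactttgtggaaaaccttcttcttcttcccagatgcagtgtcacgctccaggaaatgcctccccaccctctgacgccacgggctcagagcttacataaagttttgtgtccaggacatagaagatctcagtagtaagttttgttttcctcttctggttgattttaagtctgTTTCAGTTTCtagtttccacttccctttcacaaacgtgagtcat
Oas1a (chr12:41330216-41330465, plus strand): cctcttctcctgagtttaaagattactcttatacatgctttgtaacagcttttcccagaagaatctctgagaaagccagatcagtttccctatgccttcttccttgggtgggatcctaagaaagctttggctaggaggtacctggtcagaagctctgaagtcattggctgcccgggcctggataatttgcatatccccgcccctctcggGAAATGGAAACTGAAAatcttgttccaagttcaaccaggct
Oas1b (chr12:41395853-41396102, minus strand): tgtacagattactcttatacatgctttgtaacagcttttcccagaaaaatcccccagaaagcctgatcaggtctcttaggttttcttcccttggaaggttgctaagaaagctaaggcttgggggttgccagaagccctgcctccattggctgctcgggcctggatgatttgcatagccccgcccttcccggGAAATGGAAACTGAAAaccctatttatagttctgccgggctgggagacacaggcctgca
In the Oas1 windows 2 overlapping matches begin 41 and 35 bases before the start of Oas1a and 59 and 53 bases before that of Oas1b, and in Ifit3 the match begins 44 bases before the start on the opposite strand. A match is a description of these letters only.

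Listed genes of antigen presentation had mostly positive differences. Of 44 listed genes of the RT1 major histocompatibility complex and antigen processing, 26 could be tested, and none was called with 1 probe per gene. Among all genes tested 0.285% were called higher and 0.308% lower. The dimmer probe of RT1-Bb, called lower above, did not stand for its gene here. RT1-T18, a gene outside the list, was called higher by 1 probe (1.98). Its other probe differed by 0.47 and was not called. A positive difference was seen in 22 of the 26, against 6501 of all 12645 genes tested, and the list's median was 0.66. RT1-CE10 had -1.97, -1.13 and -1.83 in GK and -2.93, -4.26 and -4.81 in the controls (2.36 ± 0.48, limma adjusted p = 0.0897), and RT1-T24-1 differed by 1.67 (limma adjusted p = 0.0738). RT1 class I genes are near copies of each other whose probes may share signal, and their alleles differ between strains. The class II genes RT1-Da, RT1-Db1 and Cd74 differed by -0.76, -0.71 and -0.55 and the brighter probe of RT1-Bb, described above, by 1.05, and none passed. Beta-2-microglobulin (B2m), the partner of class I chains, differed by 0.17. The list's median was 0.29 without the second array of both groups and 0.34 with 19 positive under normexp background correction.

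Markers of blood and plasma had positive differences that did not pass the test. All 12 tested members had a positive difference, with a median of 1.15, none was called, and 9 of the 12 did not overlap between the groups. Over all 12645 genes 6501 were positive, and in 1422 every GK array lay above every control array. Of all genes tested 0.285% were called higher and 0.308% lower. Under normexp background correction the blood median was 0.39 with 8 of 12 positive. Hbb, a haemoglobin chain, had 0.62, 1.42 and 0.90 in GK and 0.00, -0.99 and -0.34 in the controls, Alas2, the haem synthesis enzyme of red cells, differed by 1.30 and Slc4a1, the red cell anion exchanger, by 1.71 ± 0.36 (limma adjusted p = 0.103). Pf4, a chemokine of platelets, differed by 1.21. The mean level of the 12 was -1.51, -0.83 and -1.08 on the GK arrays and -2.05, -2.10 and -2.39 on the control arrays, so it split the arrays in the same way as that of the interferon-stimulated genes, whose mean was -0.99, -0.87 and -1.20 in GK and -1.62, -1.90 and -1.67 in the controls. The part of residual blood in the other differences was not tested. The blood list's median was 0.72 in hippocampus and 0.33 in prefrontal cortex, and -0.05 in the streptozotocin striatum against the same controls. It was 0.92 against control array 1 alone. In bulk tissue, more cells of a type and more RNA per cell cannot be told apart.

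Microglial and complement genes had a median difference of 0.47 over 22 tested. Of these 17 were positive, against 6501 of all 12645 genes tested, and 1 was called higher, against 0.285% of all genes. Cd52, a surface glycoprotein of lymphocytes and myeloid cells, was called: it had -0.96, 0.02 and -0.15 in GK and -2.43, -2.12 and -2.33 in the controls (1.93 ± 0.29, limma adjusted p = 0.0309). The chains of the complement starter C1q (C1qa, C1qb and C1qc) differed by 0.87, 0.94 and 1.14 and did not pass. Of the defining markers of resting microglia, Tmem119 and P2ry12 differed by -0.26 and -0.13. Without the second array of both groups the list's median was 0.23 and Cd52 lost its call.

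Of 43 tested medium spiny neuron genes 1 was called, against 0.308% called lower among all 12645 genes tested. A positive difference was seen in 12 of the 43, against 6501 of the 12645. The list's median was -0.13. That median lay 0.14 below the median of all probes, but 0.19 above it under normexp background correction. Pde10a, the phosphodiesterase that limits cyclic nucleotides in these neurons, had 2.19, 2.37 and 2.06 in GK and 4.28, 3.79 and 4.05 in the controls, a decrease of 1.84 on the log2 scale (limma adjusted p = 0.0112). Its hippocampal and prefrontal differences were -2.12 and -2.30. The dopamine receptors Drd1 and Drd2 differed by -0.61 and -0.06, Penk by -0.42 with the first GK array's spot left out as an outlier, Tac1 by -0.47, Adora2a by -0.19 and Ppp1r1b, the dopamine-regulated phosphatase inhibitor DARPP-32, by 0.56, and none passed. Drd1 had levels of 0.10, -0.09 and -0.09 in GK and of 0.20, 0.90 and 0.64 in the controls. Over 20 interneuron genes the median was 0.01, and over 14 genes of dopamine synthesis, transport and breakdown 0.08, with none called in either list. Aldh1a1, an aldehyde dehydrogenase of dopamine neurons, came closest at -1.19 (limma adjusted p = 0.056), while Gch1, which makes a cofactor of dopamine synthesis, differed by 0.91. The interneuron peptides Sst and Vip differed by 0.66 and -1.03.

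Genes of the other cell classes had no called member with 1 probe per gene. Among all genes tested 0.285% were called higher and 0.308% lower, so the lack of calls in short lists does not set these classes apart. Medians were 0.16 over 25 astrocyte genes, 0.24 over 22 endothelial and barrier genes, 0.07 over 27 myelin genes, -0.02 over 7 oligodendrocyte precursor genes, 0.43 over 14 choroid plexus genes (0.11 without the second array of both groups, -0.12 under normexp), 0.17 over 10 ependymal genes, 0.03 over 20 meningeal, fibroblast and smooth muscle genes, -0.06 over 16 cortical excitatory neuron genes and 0.14 over 14 thalamic and diencephalic genes. Ttr, the transthyretin gene that defines choroid plexus, ranged from 0.36 to 4.44 in GK and from 0.47 to 2.43 in the controls, so the groups overlapped. The members with the smallest p did not pass either. Among glia these were Fgfr3 (1.03) and Aldh1l1 (0.60) for astrocytes, Aspa (-0.95) beside Mobp for myelin, and Tnr (0.50) and Vcan (-0.52) for the precursors. In vessels and linings they were Emcn (0.65) and Abcg2 (0.60) for endothelium, Ace (-0.92) and F5, which no control array measured above background, for the choroid plexus, Rsph1 (0.41) and Dynlrb2 (0.35) for ependyma, and Myh11 (0.66) and Igfbp2 (0.78) for meninges and muscle. The second probes of Ace, Myh11 and Tnr had the opposite sign (0.16, -0.01 and -0.08). In neurons they were Neurod6 (-1.13) for the cortex, and Calb2 (1.14) beside Avp for the thalamus and diencephalon.

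**Figure D4:**
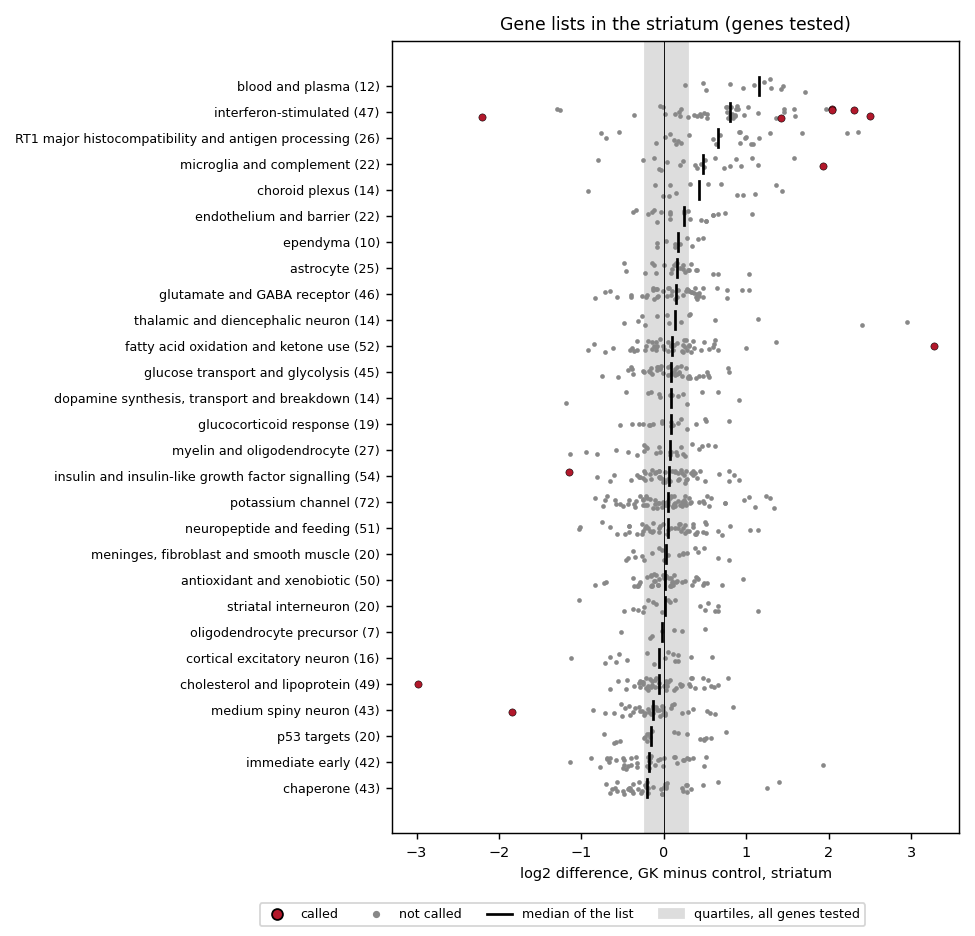
Difference in log2 level, GK minus control (x axis), of every tested gene (points, 1 probe per gene) in 28 gene lists, ordered by the list median (black bars), with the number of genes tested in brackets; red points were called and the grey band runs between the quartiles of all 12645 genes tested, -0.23 and 0.29. Blood, interferon-stimulated, RT1 and microglial genes have the highest medians, 1.15, 0.80, 0.66 and 0.47.

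Lists of insulin and of energy metabolism genes had at most 1 called member each. Among all genes tested 0.285% were called higher and 0.308% lower, and 1 call is too few to set a list against these shares. Of 54 tested genes of insulin and insulin-like growth factor signalling, Grb14, an adaptor that blocks the insulin receptor kinase, was called: -0.76, -0.83 and -0.93 in GK against 0.22, 0.41 and 0.30 in the controls (-1.15 ± 0.18, limma adjusted p = 0.0395). Its groups did not overlap. The hippocampal and prefrontal differences were -0.41 and -0.31. It lost its call under 12 of 27 other settings. Insr, the insulin receptor, differed by 0.67 (limma adjusted p = 0.26), Igf1r by 0.27, Irs2 by -0.05 and Akt2 by 0.91, and the list's median was 0.06. Irs1 was not above background. Acox2 was the only called member of 52 genes of fatty acid oxidation and ketone use (median 0.10), and Ephx2 of 49 genes of cholesterol and lipoprotein handling (median -0.06). None of 45 genes of glucose transport and glycolysis was called (median 0.08).

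The lists that follow had no called member with 1 probe per gene. With 0.285% called higher and 0.308% lower among all genes tested, this does not set them apart. Among 42 immediate early genes 12 had a positive difference and the median was -0.19, with Egr1 at -0.69 and Fos at -0.21. Jund, a partner of Fos, went the other way by both of its probes (1.93, limma adjusted p = 0.137, and 2.26, limma adjusted p = 0.0711), the first with only 1 GK and 2 control arrays left after outlier spots, and Klf10, a factor induced by growth signals, differed by -0.89. Among 43 chaperone genes the median was -0.21 with 15 positive, although Hspb1 and Hspa1a, small and inducible heat shock proteins, had 1.25 and 1.40. Under normexp background correction the chaperone median was -0.11, which is 0.15 above that of all probes. Medians were 0.05 over 72 potassium channel genes, 0.15 over 46 glutamate and GABA receptor genes, 0.05 over 51 neuropeptide and feeding genes, 0.02 over 50 antioxidant and xenobiotic genes, 0.08 over 19 glucocorticoid response genes and -0.15 over 20 p53 targets, with none called. Agrp, a peptide that drives feeding, differed by 1.14 (limma adjusted p = 0.0761) and its target receptor Mc4r by -1.02. The potassium channels Kcnj12 and Kcnq3 differed by 1.33 (limma adjusted p = 0.0891) and 1.29, the GABA receptor subunit Gabra5 by -0.66, and the carbonyl reductases Cbr3 and Cbr1 by -0.84 and -0.70. Sult1a1 and Angptl4 of the glucocorticoid list had 0.79 and 0.39, Plk2 and Phlda3 of the p53 list -0.58 and 0.76, and Pygm and Pdp1 of the glucose list 0.80 and -0.75. The decrease of Ccng1 was read by its first probe and is not in the last count, which takes the brighter second probe.

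A further list held 42 of the genes whose changes in the hippocampus or prefrontal cortex of these rats the study had also seen by PCR, so their direction in the striatum is not independent evidence. Of 40 tested, 6 were called higher (Ftcd, Mx2, Oas1a, Cd52, Bst2 and Gm2a, a lysosomal lipid carrier) and 3 lower, against 0.285% and 0.308% of all genes tested (Colq, the collagen tail of acetylcholinesterase, Pde10a, and Chi3l1, a chitinase-like glycoprotein). Colq fell from -2.37, -2.80 and -2.30 to -4.26, -4.23 and -4.75 (-1.92 ± 0.24, limma adjusted p = 0.0156), and its hippocampal and prefrontal differences of -0.63 and -1.16 were smaller. The difference between the regions for Colq was -1.03 (limma adjusted p = 0.051).

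The differences in the striatum were set against those of the other regions of the same strains, measured on other arrays. Of the 276 probes called in the striatum, 273 differed in the same direction in hippocampus and 272 in prefrontal cortex, and 217 and 215 did so at least 2-fold, 190 of them in both. Since the same 9 animals per group gave all regions, these are not independent animals. Neither these counts nor those for streptozotocin below were taken over all probes tested. How far they exceed the share among all probes is thus not known. Medians over the 113 higher probes were 1.76 in the striatum, 1.49 in hippocampus and 1.30 in prefrontal cortex, and over the 163 lower probes -1.92, -1.79 and -2.03. Spock2 differed by -6.47 in hippocampus and -6.16 in prefrontal cortex, and Rps7 by -3.08 and -3.11. The streptozotocin striatum, whose rats are Wistar, was set against the same striatal controls, so the comparisons are not independent. There 87 of the 113 higher and 98 of the 163 lower probes had the same sign. At least 2-fold in the same direction were 32 and 23 of them. For example, Trim16 (-4.15) and Ftcd (2.26) also differed there, while Spock2 (-0.27), Rps7 (-0.15) and Ccng1 (0.24) were near 0.

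The test of the difference itself, striatum minus the mean of hippocampus and prefrontal cortex, called 31 of 30012 probes (0.103%), 20 positive and 11 negative, and 7 of these were among the 276. Cnksr1 had the largest value with a gene symbol, 2.68 ± 0.22 (limma adjusted p = 7.3e-05), and was called under all but 1 of 22 other settings, normexp background correction. Gcnt2, a glycosyltransferase that branches blood group sugar chains, had -1.75 ± 0.15 (limma adjusted p = 7.3e-05) and kept its call under all 22. It was 1.26, 1.15 and 0.95 in the GK striatum and 2.07, 2.54 and 2.22 in the controls, whereas it was higher in GK by 0.73 in hippocampus and 0.45 in prefrontal cortex. Mamdc2, a secreted proteoglycan, had -1.74 by a probe with no GK striatal array above background, and -1.24 by its second probe.

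In 4 of these genes the striatal difference was near 0. Umod and Sftpc, known as products of kidney and lung, differed by -0.05 and -0.37 in the striatum and by -2.93 to -2.07 in the other regions. For Sftpc this holds for its dimmer probe only. The other probe, well above background on all arrays, differed by 0.20 in the striatum, by -0.20 in hippocampus and by 0.33 in prefrontal cortex. Dmkn, a secreted epidermal protein, and Akap3, a kinase anchor known from sperm, differed by -0.05 and -0.19 in the striatum. They differed by 2.06 and 1.63 in the hippocampus and by 1.27 and 0.70 in the prefrontal cortex. Mx1, an antiviral GTPase, differed by 1.97 in the striatum without a control array above background and was not called there (limma adjusted p = 0.0995). It differed by -1.76 in hippocampus and by 1.09 in prefrontal cortex. The call of the region test was lost under 13 of 20 other settings for Mx1, 11 of 21 for Sftpc and 9 of 22 for Dmkn. For Umod it was lost under 6 of 21 and for Akap3 under 3 of 22. The median SD of a probe between pools was 0.284 in the GK and 0.255 in the control striatum but 0.0882 and 0.111 in the hippocampus. With weights by group 2 probes were called, Cnksr1 and Gcnt2, and without control array 1 there were 201.

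**Figure D5:**
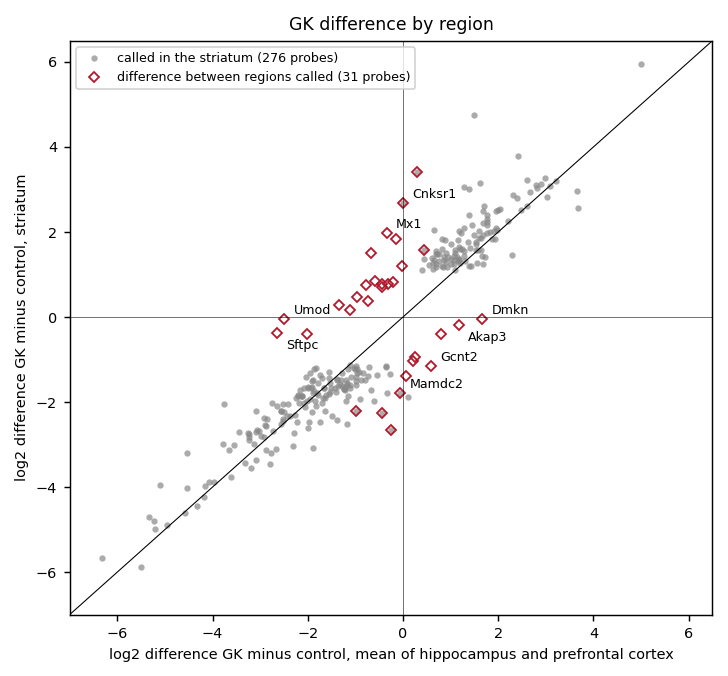
Difference in log2 level, GK minus control, in the striatum (y axis) against the mean of the differences in the hippocampus and the prefrontal cortex (x axis) for the 276 probes called in the striatum (grey) and the 31 probes called for a difference between regions (red diamonds, named genes labelled); the line marks equal values. Most grey points lie along the line, while Cnksr1 sits at 2.68 on the y axis and near 0 on the x axis.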

How the data were processed

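RNA of the striatum was hybridised to Agilent single-colour (Cy3) rat arrays, 3 pools of 3 animals per group. Per the file headers, the deposited intensities were quantified with Agilent Feature Extraction 9.1: the spot signal had its background subtracted and was detrended within the array, without scaling across arrays. A deposited table of values held the same intensities and was used as an alternative. Genes were named through RefSeq by accession (10726 probes), symbol (5586) or synonym (3730), and 20970 probes had no match.

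Here, log2 of the processed intensity minus that of the array's 75th percentile was tested with limma 3.58.1 in R 4.3.3 (lmFit and eBayes, 4 residual and 3.71 prior degrees of freedom), on the 6 arrays alone. The pooled fit of all 9 groups was kept as an alternative, because the GK and control striatum vary more between pools than the other groups. Outlier spots were left out, and probes had to be well above background on 2 of 3 arrays of either group (30032 passed, of which 30025 had values enough to be tested). The threshold was a Benjamini-Hochberg adjusted p under 0.05 and a 2-fold change. The region contrast used 18 arrays (12 residual and 2.92 prior degrees of freedom) and ignored that regions share animals. P-values measure the spread between pools. For a gene list, the tested probe with the highest mean over the 6 arrays stood for its gene.

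The text names the 12 largest increases and decreases with a symbol and groups that do not overlap, the called members of each list with the smallest p (up to 4, or 2 where none was called), 3 probes that the study lists for the striatum, and the 4 highest and 4 lowest genes of the region contrast. Other list members were chosen after their values were seen. The members and lists were chosen with earlier results of these data known. The fit was tested on simulated data. Other tools were matplotlib 3.10.9, pandas 2.3.3, numpy 2.4.6 and Python 3.11.15. A few genes are not reported here.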

Additional observations from a re-analysis of the deposited data

Results flagged for a closer look

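The GK difference in the striatum departed from the mean of the other regions for 8 named genes, by the limma contrast over 18 arrays. Values above the other regions were 2.68 for Cnksr1, 2.44 for Umod, 2.30 for Mx1 and 2.27 for Sftpc on the log2 scale. Values below them were -1.75 for Gcnt2, -1.74 for Mamdc2, -1.72 for Dmkn and -1.35 for Akap3. Cnksr1 and Mamdc2 were also called in the striatum itself, the other 6 were not. Umod and the Sftpc probe concerned were well above background on 3 of 6 arrays in each of the other regions, and that Sftpc probe on 1 of 3 GK and 2 of 3 control arrays in the striatum. The brighter Sftpc probe had a value of 0.13 and was not called.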

How the results depend on the processing

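Against 276 called probes, the count was 8 with normexp background correction, 172 without the filter on dim probes, 586 with the spread taken from the 3 striatal groups, 948 from all 9 groups and 461 from all 9 with weights by group. It was 573 with slide as a fixed term in the fit of 9 groups, 37 within slide 4 alone, 742 with array weights and 420 without the second array of both groups, an alternative chosen after seeing the data. A Welch t-test, the kind of test the study used, was run on the values and filter used here. It gave 0 after Benjamini-Hochberg adjustment and 666 at the same unadjusted threshold with the 2-fold change (2616 probes at an unadjusted p under 0.05). The study itself, with its own normalization and screening, lists 3 probes for the striatum. Leaving out 1 array gave 73 to 235. In the fit within slide 4 the lone control array is assumed to vary like the GK arrays. Quantile and 50th percentile scaling, the value table, the other filters, outlier spots, moderation with a trend, the fold threshold and slide as a random block kept the count within 1.5 times (219 to 297). The share of higher calls was 113 of 276. It was lower with 50th percentile scaling (99 of 283) and normexp (1 of 8), and 146 of 292 with probes above background on all 6 arrays, 294 of 586 with the 3 striatal groups, 489 of 948 with all 9, 394 of 742 with array weights, 203 of 420 without the second arrays and 347 of 666 in the unadjusted t-test.

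For the difference between regions, 31 probes became 1 with normexp, 20 with slide as a fixed term, 102 with array weights, 2 with 6 groups weighted by group, 56 with the spread of all 9 groups and 18 to 201 with 1 array left out, the highest without control array 1. With 50th percentile scaling 9 were positive and 17 negative, with quantile normalization 9 and 12.

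With a replicate block the striatal count was 27 and the region count 20. The correlations of deviations between same-numbered GK and control arrays were 0.06, 0.08 and 0.06, and GK array 3 correlated best with control array 1, so the numbers were not taken as pairs.

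Among the single named probes the sign of a called value turned under normexp, for Kmo (-0.11), Uaca (-0.093) and the region value of Sftpc (-0.17), all from dim probes. Of 29 list medians, 7 changed sign with 50th percentile scaling and 2 with quantile normalization, none of them beyond 0.07 in size before, and 11 with normexp, which moved the median of all probes to -0.26. Relative to the median of all probes under each setting, 0, 2 and 6 lists changed side. The causes of these changes were not tested.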
